A study of Mus musculus with 18 samples.

Results

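Acyl-CoA thioesterases split acyl-CoA, the activated form of a fatty acid, into a free fatty acid and coenzyme A. The 9 genes described here are the rows of the count table whose symbols are Acot1, Acot2, Acot3, Acot4, Acot7, Acot8, Acot9, Acot11 and Acot13, 9 of 54347 rows in all. Their levels were followed in 3 adipose tissues of 6 mice, the brown interscapular depot (iBAT) and the white depots of the inguinal (iWAT) and epididymal (eWAT) sites, by sequencing of polyadenylated RNA. All mice were 12 weeks old, on the C57BL/6N background and fed chow. The 3 knockout (ko) animals carried a CRISPR/Cas9 deletion that includes exon 1 of the long noncoding RNA gene Gm15551. The deletion is present in every cell. The controls were 3 wild type (wt) mice. Each tissue of each mouse gave 1 library, so that 18 libraries fell into 6 groups of 3.

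Thioesterases work against the acyl-CoA synthetases, which attach coenzyme A to fatty acids, and so can set how much acyl-CoA is open to oxidation or to lipid synthesis. The family falls into type I enzymes, whose genes Acot1 to Acot4 lie side by side in the mouse, and type II enzymes, built on another protein fold, to which Acot7, Acot8, Acot9, Acot11 and Acot13 belong. The members act in different compartments. Acot1 and Acot7 are cytosolic, Acot2, Acot9 and Acot13 are found with mitochondria, and Acot3, Acot4 and Acot8 are peroxisomal. Acot11, also called Them1 or brown fat inducible thioesterase, is best known from brown fat, where it limits the use of fatty acids for heat.

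The type I genes lie on chromosome 12 of GRCm38, all on the plus strand, in the order Acot2 (83987861 to 83993873), Acot1 (84009490 to 84018371), Acot4 (84038379 to 84048601) and Acot3 (84052144 to 84060402), followed by Acot5 and Acot6, within 123489 bp. The coding sequences of Acot1 (1260 bases) and Acot2 (1362 bases) were 95.2% identical over 1239 aligned bases, whereas Acot1 and Acot4 were 74.8% identical. The first bases of both are shown because their coding sequences were the most alike of the pairs among Acot1 to Acot4. Capitals mark the 60 bases of each that align, of which 50 are identical, and the lower-case 123 bases of Acot2 (41 codons) have no counterpart in Acot1.
Acot2: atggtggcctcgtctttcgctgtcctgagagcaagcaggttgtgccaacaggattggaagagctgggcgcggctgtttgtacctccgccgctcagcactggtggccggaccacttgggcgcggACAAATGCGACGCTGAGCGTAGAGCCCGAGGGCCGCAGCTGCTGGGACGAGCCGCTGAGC
Acot1: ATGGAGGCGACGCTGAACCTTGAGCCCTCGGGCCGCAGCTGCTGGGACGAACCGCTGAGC

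Of the distinct 50-base words in the annotated transcripts of each gene, 27.7% in Acot2, 19.2% in Acot1, 21.3% in Acot3, 13.4% in Acot4 and 15.2% in Acot9 were also present in another gene. Acot7 and Acot13 shared 0 such words. Reads from the shared stretches were divided between genes by a statistical model, so the split between Acot1 and Acot2 carries an uncertainty beyond the replicate error. The main partner was Acot10 on chromosome 15 for Acot9 (344 words), for Acot1 and Acot2 it was each other (527 words), for Acot4 the antisense gene 4732463B04Rik (689 words, 4 to 28 counts per library) and for Acot3 Gm49366 on the same strand (380 words, 0 to 5 counts) and 4732463B04Rik (264 words). Of the words of Acot11 17.3% and of Acot8 9.77% were shared, and both overlap a gene on the opposite strand: 1263 bp (20.9%) of the Acot11 exons overlap Fam151a, which had 0 to 17 counts per library, and 246 bp (12.3%) of the Acot8 exons overlap Snx21, which had 434 to 1080 counts. Whether strand was used in counting is not given in the sources used here.

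The libraries held 14997901 to 34389586 counts. Ucp1, the uncoupling protein that defines brown fat, had 3422 to 7994 CPM (the count scaled to a common library size by the trimmed mean of M values) in iBAT and at most 55.3 in the white tissues. Adipoq, which marks adipocytes, was present in all 18 libraries at 711.9 CPM or more. Gm15551 had 40 to 316 counts in the wild type libraries and 0 to 4 in the knockout libraries. In 4 libraries, genes of another tissue stood far above the rest: lymph node genes in iWAT wt replicate 3 and iWAT ko replicate 2 (10 genes, summed 1009 and 421 CPM, against a tissue median of 17.9), skeletal muscle genes in iWAT ko replicate 1 (13 genes, 4797 CPM, median 6.92) and epididymis genes in eWAT ko replicate 3 (11 genes, 7196 CPM, median 1.70). Testis genes were also highest in eWAT ko replicate 3 (10 genes, 120 CPM, median 2.93). Where leaving out these 4 libraries changed a call, the value without them is given beside the result. In bulk tissue, fewer cells of a type and less RNA per cell cannot be told apart.

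iBAT held more thioesterase RNA than either white tissue. Of the 8 members that passed the filter on low counts, 7 were higher in iBAT than in iWAT and 0 were lower. Against eWAT 4 were higher and 0 lower. Of all 18728 genes tested, 54.3% were called between iBAT and iWAT, 24% higher and 30.3% lower in iBAT, and 54.6% between iBAT and eWAT, 24.4% higher and 30.2% lower in iBAT. Acot11, Acot13, Acot2 and Acot8 were higher in iBAT against both white tissues in the edgeR quasi-likelihood test, with Benjamini-Hochberg adjusted p-values between 1.61e-10 and 2.18e-05. The median difference over the 8 members was 1.10 on the log2 scale against iWAT and 0.86 against eWAT, beside medians of −0.14 and −0.17 over all genes tested. Other measures moved with these tissues. The summed level of 10 macrophage and immune genes, all of them detected in every library, was 136 to 375 CPM in the iBAT libraries, against 639 to 4347 for iWAT and 717 to 1140 for eWAT, and counts from the mitochondrial genome made up 22.9% to 27.0% of the iBAT libraries and 3.77% to 9.64% of the white libraries. Their part in the members' differences was not tested.

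**Figure D1:**
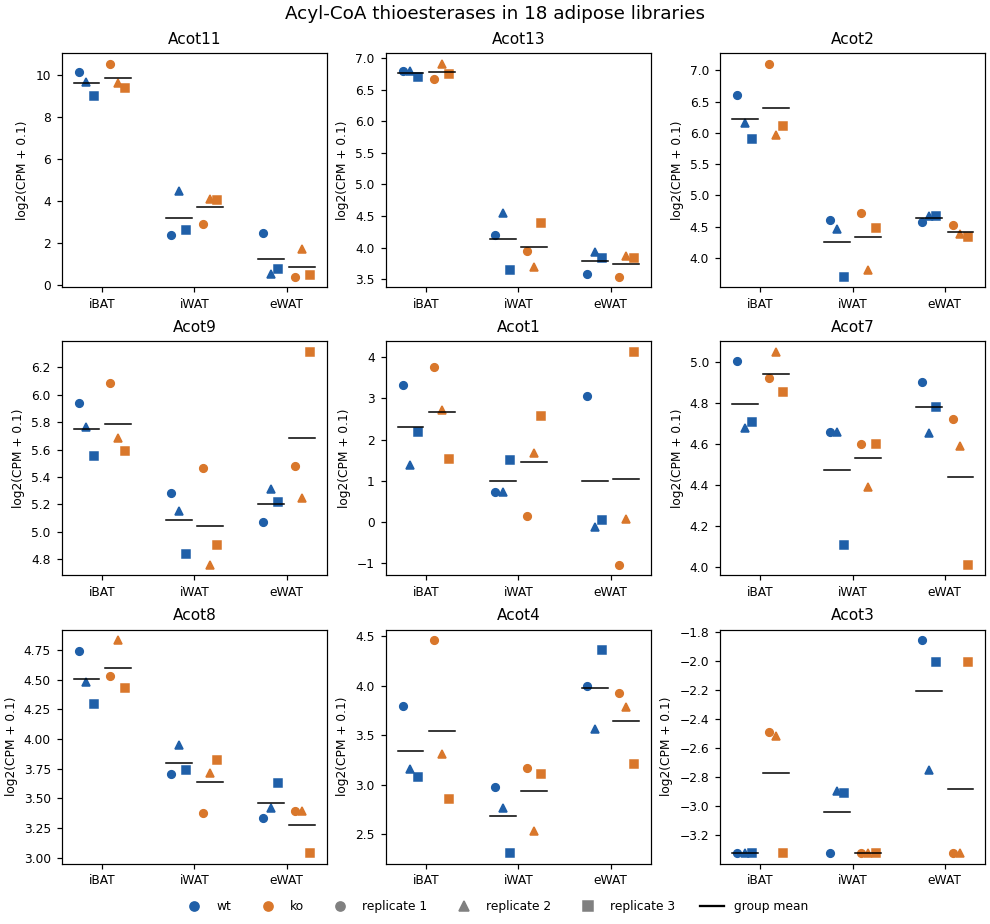
Level of each member in each library, as log2(CPM + 0.1), by tissue and genotype, with a bar at the mean of 3 libraries and a symbol for each replicate number. Acot11, Acot13, Acot2 and Acot8 are higher in all 6 iBAT libraries than in any white library. In eWAT, wt replicate 1 and ko replicate 3 stand apart for Acot1, and ko replicate 3 alone for Acot9. Acot3 is close to 0 CPM throughout.

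Acot11 differed most. Its gene (chromosome 4, 106744555 to 106804998, minus strand) is annotated with 7 transcripts, which the table does not separate. In iBAT its level was 500.4 CPM at the lowest, 791 at the median and 1480 at the highest. In iWAT the lowest, median and highest levels were 5.07, 11.9 and 22.2 CPM, and in eWAT 1.20, 1.45 and 5.36. The lowest iBAT library was thus far above the highest white library. The difference was 6.18 ± 0.52 on the log2 scale against iWAT (72.3-fold, adjusted p = 6.50e-08, edgeR) and 8.57 ± 0.59 against eWAT (379-fold, adjusted p = 4.06e-09, edgeR). In all, 25 of the 18728 genes tested had a larger log2 difference in favour of iBAT over iWAT, and 15 over eWAT. Under all alternatives tried, both differences kept their direction and call, between 5.87 and 6.50 against iWAT and between 8.19 and 8.99 against eWAT.

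Acot11 was also the member that was higher in iWAT than in eWAT, by 2.39 ± 0.47 on the log2 scale (5.24-fold, adjusted p = 0.0040, edgeR), a contrast in which 10.2% of all genes were called. The 2 tissues overlapped here, since eWAT wt replicate 1 (5.36 CPM) lay above iWAT wt replicate 1 (5.07 CPM). Within iWAT the libraries fell into a lower range of 5.07 to 7.39 CPM and a higher range of 16.5 to 22.2 CPM. The higher libraries, wt replicate 2 and ko replicates 2 and 3, were also those with the most Ucp1, at 55.3, 16.5 and 18.5 CPM against 0.0989 to 3.21 in the other 3. Summed over 11 brown adipocyte genes, the level ranged from 7443 to 12929 CPM among the iBAT libraries, whereas iWAT had 55.4 to 379 and eWAT 38.9 to 75.7. Within iWAT this sum did not follow Acot11 in every library: it was 379, 184 and 358 CPM in the 3 libraries with more Acot11 (in the order above), and 212, 193 and 55.4 in wt replicate 1, ko replicate 1 and wt replicate 3. The part of these genes in the Acot11 difference was not tested. The difference between iWAT and eWAT was 2.0 with the wild type libraries alone (adjusted p = 0.269, edgeR) and 2.81 with the knockout libraries alone (adjusted p = 0.0572, edgeR), neither of them called. In the exact two-sided sign-flip permutation test, which pairs the tissues by mouse, it had p = 0.0625, with 5 of 6 mice higher in iWAT.

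**Figure D2:**
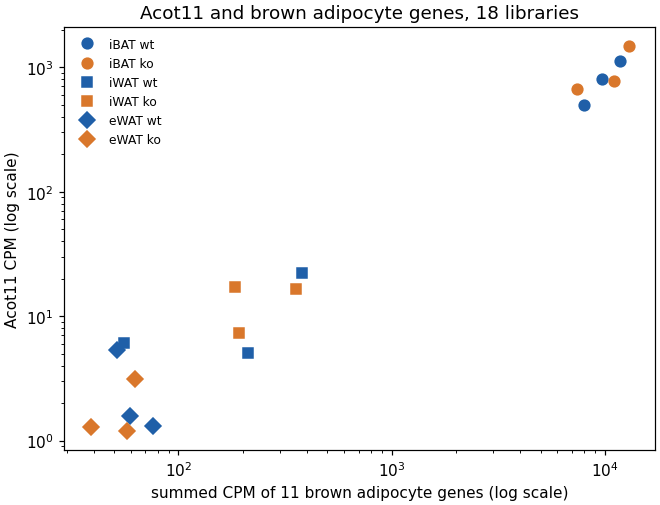
Acot11 in CPM against the summed CPM of 11 brown adipocyte genes in each of the 18 libraries, both on log axes, with colours for genotype and symbols for tissue. The 6 iBAT libraries lie at the upper right, the iWAT libraries between 5.07 and 22.2 CPM of Acot11, and the eWAT libraries at 5.36 CPM or less.

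The bases before the start of Acot11 in RefSeq, on the minus strand of chr4:106805008-106805257 in GRCm38.p6, are shown because this gene differed most between the tissues, and those before Acot4, on the plus strand of chr12:84038129-84038378, because they alone held a match to the motif searched. Both are written in the direction of the gene, and each ends at the base before the start. Peroxisome proliferator-activated receptors (PPARs), which control many genes of fatty acid oxidation, bind as pairs with RXR to repeats of AGGTCA with 1 base between them. The letters AGGTCA were searched on both strands in the 250 bases before each start. They were found, as TGACCT and in capitals below, in the Acot4 window, beginning 13 bases before the start, and in 14.02% of 32851 such windows over all genes. RefSeq windows were on hand for 8 of the 9 members, and the other 7 held no match. The whole repeat, AGGTCA followed by any 1 base and AGGTCA again, was not matched in any member's window and was present in 0.03% of all windows. These matches describe the letters only. The Acot11 window was 66.4% G or C and the Acot4 window 42.4%.
Acot11: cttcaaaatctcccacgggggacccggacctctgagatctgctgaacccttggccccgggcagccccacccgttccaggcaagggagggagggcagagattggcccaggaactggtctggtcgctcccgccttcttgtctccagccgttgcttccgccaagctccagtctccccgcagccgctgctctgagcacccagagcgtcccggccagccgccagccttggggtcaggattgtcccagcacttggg
Acot4: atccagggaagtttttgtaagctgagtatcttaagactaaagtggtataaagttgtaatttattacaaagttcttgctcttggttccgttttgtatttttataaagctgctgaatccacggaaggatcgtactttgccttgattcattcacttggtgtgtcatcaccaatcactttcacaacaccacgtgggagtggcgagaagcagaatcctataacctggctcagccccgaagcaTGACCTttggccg

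Acot13 (chromosome 13, 24817948 to 24831540, minus strand), also called Them2, encodes a small thioesterase found with mitochondria. It was the steadiest of the members in iBAT, with a coefficient of variation of 5.93% over 6 libraries. Its lowest, median and highest levels were 102, 109 and 120 CPM in iBAT, 12.4, 16.8 and 23.2 in iWAT and 11.5, 14.1 and 15.2 in eWAT. No iBAT library overlapped with a white library, and the white tissues overlapped with each other. iBAT was higher by 2.67 ± 0.15 on the log2 scale against iWAT (6.38-fold, adjusted p = 7.28e-10, edgeR) and by 3.01 ± 0.15 against eWAT (8.07-fold, adjusted p = 1.61e-10, edgeR). By p-value it stood near the top of all genes, with 36 and 30 of 18728 genes having a smaller one. Its difference between iWAT and eWAT was 0.34 ± 0.14 and not called by edgeR (adjusted p = 0.131). It was called with limma voom (0.40, adjusted p = 0.0149) and, in edgeR, without the 4 libraries that held genes of another tissue (0.63, adjusted p = 0.0022).

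Acot2, the mitochondrial enzyme for long-chain acyl-CoA, was measured at a lowest, median and highest level of 59.8, 70.0 and 138 CPM in iBAT, 12.9, 22.1 and 26.1 in iWAT and 20.1, 23.4 and 25.3 in eWAT. All iBAT libraries lay above all white libraries. The difference was 2.03 ± 0.22 on the log2 scale against iWAT (4.09-fold, adjusted p = 9.28e-07, edgeR) and 1.84 ± 0.22 against eWAT (3.59-fold, adjusted p = 2.07e-06, edgeR). iWAT and eWAT differed by −0.19 ± 0.21, which was not called. The summed counts of Acot2 and the near-identical Acot1 differed by 1.97 against iWAT and 1.68 against eWAT, both called.

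Acot9 (chromosome X, 155262443 to 155297654, plus strand), a mitochondrial thioesterase that takes short as well as long acyl chains, showed a smaller difference. Its lowest, median and highest levels were 46.8, 52.8 and 67.7 CPM in iBAT, 27.0, 32.7 and 44.2 in iWAT and 33.6, 38.8 and 79.4 in eWAT. iBAT and iWAT did not overlap, and iBAT was higher by 0.69 ± 0.18 on the log2 scale (1.61-fold, adjusted p = 0.0047, edgeR). The call was lost in 2 of 21 alternatives, with the knockout libraries alone (0.74, adjusted p = 0.101, edgeR) and when the difference had to exceed 0.5 (adjusted p = 0.136, edgeR). In eWAT, ko replicate 3 was above every iBAT library at 79.4 CPM, and the next eWAT library reached 44.6. With all libraries the difference between iBAT and eWAT was 0.29 ± 0.19 (adjusted p = 0.193) and not called by edgeR, whereas limma voom called it (0.44, adjusted p = 7.86e-04). Without ko replicate 3 in all tissues it was 0.54 and called (adjusted p = 0.0048, edgeR), and without the 4 libraries that held genes of another tissue it was 0.50 and called (adjusted p = 0.0016, edgeR). This is the library with the epididymis genes, and Them4, a related mitochondrial thioesterase, had 23.3 CPM there against 3.70 to 5.43 in the other eWAT libraries. The part of the epididymis and testis genes in these values was not tested.

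Among the peroxisomal members, Acot8 (chromosome 2, 164792765 to 164804882, minus strand), which acts on acyl-CoA of many lengths and on bile acid intermediates, was higher in iBAT. Its lowest, median and highest levels were 19.6, 22.6 and 28.4 CPM in iBAT, 10.3, 13.1 and 15.4 in iWAT and 8.12, 10.4 and 12.2 in eWAT. The iBAT libraries overlapped with none of the white libraries. The difference was 0.84 ± 0.12 on the log2 scale against iWAT (1.79-fold, adjusted p = 2.18e-05, edgeR) and 1.20 ± 0.12 against eWAT (2.29-fold, adjusted p = 3.76e-07, edgeR). The difference of 0.35 ± 0.12 between iWAT and eWAT was not called by edgeR (adjusted p = 0.0720) and was called by DESeq2 (0.36, adjusted p = 0.0274).

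Acot4, whose product acts on succinyl-CoA and other dicarboxylic acyl-CoA in peroxisomes, had another order, with eWAT at the top. The lowest, median and highest levels were 9.11, 14.4 and 20.5 CPM in eWAT, 7.15, 9.33 and 21.9 in iBAT and 4.85, 7.23 and 8.89 in iWAT. The iWAT libraries lay below all eWAT libraries, and iBAT overlapped with both. Acot4 was lower in iWAT than in eWAT by −1.03 ± 0.27 on the log2 scale (adjusted p = 0.0232, edgeR), the direction shared by all 6 mice, and higher in iBAT than in iWAT by 0.72 ± 0.27 (adjusted p = 0.0312, edgeR). iBAT and eWAT differed by −0.31 ± 0.27, which edgeR did not call (adjusted p = 0.337) and limma voom did (−0.53, adjusted p = 0.0197). Both edgeR calls were narrow. Without the 4 libraries that held genes of another tissue the difference was −1.0 for iWAT against eWAT (adjusted p = 0.0590, edgeR) and 0.57 for iBAT against iWAT (adjusted p = 0.149, edgeR). Limma voom gave 0.40 for iBAT against iWAT and did not call it (adjusted p = 0.128), and the exact two-sided sign-flip permutation test over mice gave p = 0.0625, with 5 of 6 mice higher in iBAT. Leaving out the mouse of wt replicate 1, 2 or 3 or of ko replicate 2 ended the call between iWAT and eWAT, with differences from −1.19 to −0.80 over all 6 mice left out in turn. Of 21 alternatives 8 ended it, which also include the wild type libraries alone (−1.31, adjusted p = 0.0773), the knockout libraries alone (−0.72, adjusted p = 0.519) and a difference over 0.5 (adjusted p = 0.132), all in edgeR. Leaving out any of these mice or that of ko replicate 1 ended the call between iBAT and iWAT, with differences from 0.50 to 0.87. That call was lost in 12 of 21 alternatives, which also include no filter on low counts (0.67, adjusted p = 0.0661), either genotype alone (adjusted p = 0.0986 for wild type and 0.195 for knockout) and a difference over 0.5 (adjusted p = 0.191), all in edgeR.

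Acot3, the fourth type I member and also peroxisomal, was hardly detected. It had 0 to 4 counts in every library and failed the filter on low counts, so it was not tested. The limit of 3 counts that a 0 allows by counting error alone equals 0.0728 to 0.235 CPM, depending on the library.

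The cytosolic members showed the least or the least certain differences. Acot7 (chromosome 4, 152178134 to 152271855, plus strand), known for its high level in brain and its preference for arachidonoyl-CoA, had lowest, median and highest levels of 25.5, 29.5 and 33.1 CPM in iBAT, 17.1, 24.2 and 25.2 in iWAT and 16.0, 25.7 and 29.9 in eWAT. The iBAT libraries were above the iWAT libraries by a narrow margin and overlapped with eWAT. The difference of 0.36 ± 0.14 on the log2 scale between iBAT and iWAT was called (adjusted p = 0.0319, edgeR), that of 0.24 ± 0.14 between iBAT and eWAT was not. Without the 4 libraries that held genes of another tissue the former was 0.23 (adjusted p = 0.0765, edgeR), and it also lost its call without wt replicates 1 or 3 or ko replicates 1 or 2, at 0.37, 0.32, 0.37 and 0.30. In all, 10 of 21 alternatives ended it, among them no filter on low counts (0.32, adjusted p = 0.118), at least 10 counts in every library (0.27, adjusted p = 0.0757), either genotype alone (adjusted p = 0.196 for wild type and 0.119 for knockout) and a difference over 0.5 (adjusted p = 0.855), all in edgeR.

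Acot1, the cytosolic enzyme for long-chain acyl-CoA that rises with fasting in liver, varied most between libraries of 1 tissue. In iBAT the lowest, median and highest levels were 2.53, 5.46 and 13.4 CPM, and in iWAT 1.01, 2.15 and 5.87. In eWAT, 4 libraries lay between 0.386 and 0.946 CPM, whereas wt replicate 1 had 8.18 and ko replicate 3 had 17.4 CPM. All 3 tissues overlapped. With all libraries edgeR called none of its tissue differences, which were 1.36 ± 0.79 for iBAT against iWAT, 0.52 ± 0.78 for iBAT against eWAT and −0.84 ± 0.78 for iWAT against eWAT. Limma voom called it higher in iBAT than in iWAT (1.27, adjusted p = 0.0413) and than in eWAT (2.23, adjusted p = 8.95e-04). In edgeR the difference between iBAT and iWAT was also called without ko replicate 3 in all tissues (1.93, adjusted p = 0.0414) and with the libraries of these tissues alone (1.35, adjusted p = 0.0337).

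The same 2 eWAT libraries had the highest summed epididymis genes, 7196 CPM in ko replicate 3 and 35.1 in wt replicate 1, against at most 2.91 in the other 4. Without both libraries, a choice made after seeing the data, Acot1 was higher in iBAT than in eWAT by 3.04 on the log2 scale (adjusted p = 5.76e-04, edgeR), and its difference between iWAT and eWAT changed sign to 1.69 (not called). The part of the epididymis genes in the Acot1 values was not tested.

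**Figure D3:**
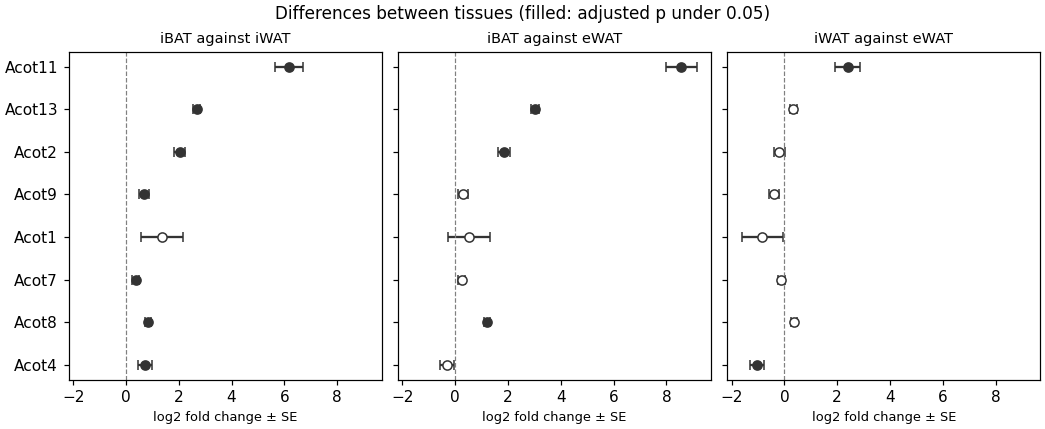
Log2 fold change with standard error of the 8 tested members for each pair of tissues, in 18 libraries. Filled points passed an adjusted p of 0.05 in the edgeR test, which were 7 for iBAT against iWAT, 4 for iBAT against eWAT and 2 for iWAT against eWAT, and Acot11 lies far to the right in each panel.

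In counts, iWAT and eWAT differed in 2 of the 8 members, Acot11 upward and Acot4 downward, where 5.7% of all genes were called higher in iWAT and 4.5% lower. Non-overlapping libraries were found in 6 members for iBAT against iWAT, in 4 for iBAT against eWAT and in 1, Acot4, for iWAT against eWAT. The same was the case for 34.6%, 37.3% and 4.62% of all genes.

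To compare the members with each other, levels were divided by the length of their annotated exons. The 9 genes together reached 295 to 507 CPM per kb in the iBAT libraries, against 52.1 to 81.4 for iWAT and 64.9 to 80.7 for eWAT. In iBAT, Acot11 and Acot13 held the first 2 ranks in all 6 libraries, with a median of 35.5% and 42.1% of the sum, and Acot2 ranked 3 with 9.34%. Which of Acot11 and Acot13 came first differed between libraries. In iWAT Acot13 came first with 32.7%, followed by Acot9 with 22.2%, and Acot11 held 2.76%. In eWAT Acot13 and Acot9 held 25.7% and 25.6%, and Acot11 0.345%. The mitochondrial members together made up a median of 56.7% of the sum in iBAT, 69.0% in iWAT and 69.8% in eWAT. The peroxisomal members made up 3.52%, 10.9% and 11.2%. Acot11 was placed in no compartment but counted in the sum, so its 35.5% in iBAT lowers the share of every compartment there. The compartment shares are therefore not directly comparable between iBAT and the white tissues. With exon lengths Acot9 ranked ahead of Acot13 in eWAT ko replicates 1 and 3. With the length of the longest coding transcript in place of all exons it did so in all 6 eWAT libraries and in iWAT ko replicate 1, and its median share in eWAT was 27.2% against 21.5% for Acot13.

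**Figure D4:**
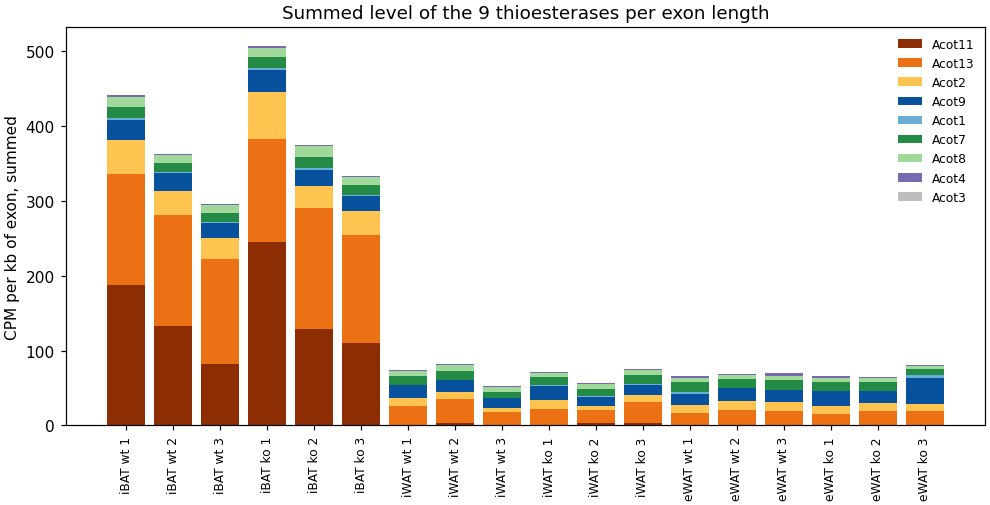
Stacked bars of the level per exon length (CPM per kb) of the 9 members in each library, starting at 0. The iBAT bars reach 295 to 507 CPM per kb, mostly from Acot11 and Acot13, and the white bars 52.1 to 81.4, and the large Acot9 part in eWAT ko replicate 3 can be seen.

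Over the 18 libraries, the genes most like Acot13 by Pearson's r of log2 CPM were Ndufa6 (r = 0.998) and Ndufb11 (r = 0.997), both subunits of respiratory complex I. Acot11 was most like Atp4b (0.988) and Trmt2b (0.986), Acot2 most like Btbd1 (0.983) and Zfp91 (0.980), and Acot8 most like Hspe1 (0.975) and Abcd4 (0.974). Acot9 came closest to Eif1ax (0.955) and Them4 (0.953), Acot7 to Pde4c (0.908) and Ap1s1 (0.897), Acot4 to Ddx24 (0.903) and Spats2 (0.880), and Acot1 to Nav2 (0.898) and Tjp3 (0.880). The points share tissue and mouse, and single libraries weigh on some values, since Acot9 and Them4 were both highest in eWAT ko replicate 3 (79.4 and 23.3 CPM). Among the members, Acot11 and Acot13 (0.959) and Acot8 and Acot11 (0.947) ran closest together, and Acot4 and Acot11 (−0.029) did not.

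No difference in the members' levels with loss of Gm15551 passed the test. Across tissues, 0 of 8 members were called in the comparison of knockout with wild type, where 0.00534% of all genes were called, and the log2 differences lay between −0.081 for Acot8 and 0.69 for Acot1. The largest standard error was 0.64, for Acot1, and the smallest 0.10, for Acot8. This model treated the 18 libraries of 6 mice as independent, so these errors do not reflect the mouse as the unit. With counts summed per mouse, or with the mouse as a random effect, no member was called, beside 0 and 1 of all genes. Within tissues the count was 0 of 8 in iBAT, iWAT and eWAT alike, with 0%, 0% and 0.00534% of all genes called. DESeq2 and limma voom also called 0 members in each of these comparisons. The joint test of genotype by tissue called 0 of 8, beside 0% of all genes. Below an unadjusted limit of 0.05 lay 0 members across tissues, in iBAT, in iWAT and in the joint test, where 2.19%, 1.27%, 2.22% and 1.41% of all genes did, and 1 in eWAT. Libraries of the genotypes did not overlap for 0 members in iBAT and iWAT, beside 4.94% and 4.92% of all genes.

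Acot11, whose level was highest in iBAT, had 1131, 802 and 500.4 CPM in wild type iBAT and 1480, 779 and 667 CPM in knockout iBAT. The genotypes overlapped, and the difference was 0.27 ± 0.61 on the log2 scale. Acot13 differed by 0.017 ± 0.20 in iBAT, Acot2 by 0.24 ± 0.31 and Acot8 by 0.090 ± 0.17. In iWAT the differences of the 8 members lay between −0.15 and 0.77. The precision was therefore highest for Acot8, Acot7 and Acot13 and poor for Acot1 and Acot11.

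This member was Acot9, at 0.55 ± 0.25 (adjusted p = 1, edgeR), beside 4.35% of all genes below the unadjusted limit in eWAT. The wild type libraries had 33.6, 39.7 and 37.1 CPM and the knockout libraries 44.6, 38.0 and 79.4. Without the mouse of ko replicate 3 the difference was 0.16. Acot1 in eWAT likewise went from 0.90 ± 1.18 to −2.28 without that mouse. Acot2 in eWAT was the single member whose 3 knockout libraries (23.0, 20.7 and 20.1 CPM) did not overlap with its wild type libraries (23.8, 25.3 and 25.3 CPM), where 5.25% of all genes did not, and its difference of −0.22 ± 0.31 was not called.

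**Figure D5:**
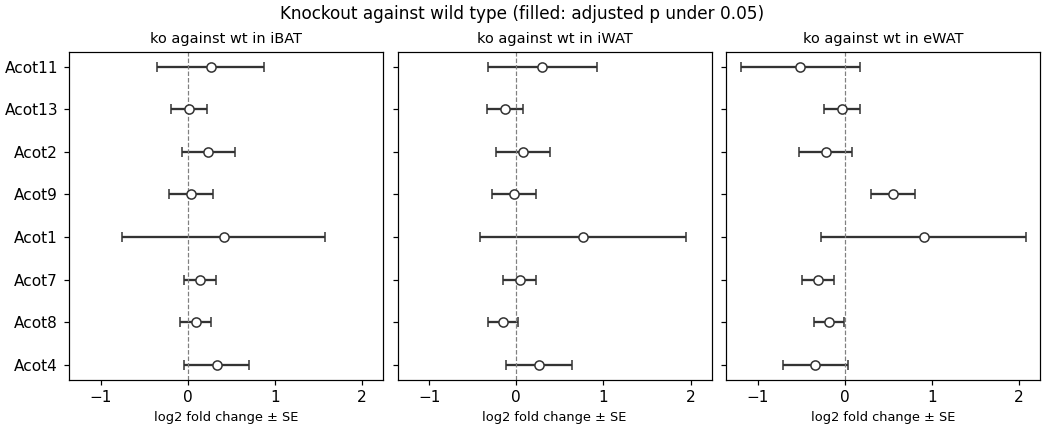
Log2 fold change with standard error of the 8 tested members for knockout against wild type in each tissue, 3 libraries a group. No point is filled, since no member passed an adjusted p of 0.05, and the widest bars are those of Acot1.

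Other genes of the thioesterase family and of the steps before and after it were counted in the same fits. Of 8 further thioesterases and related genes, 4 passed the filter. Acot12, an acetyl-CoA thioesterase of liver, was counted 1 to 18 times per iBAT library and at most 2 times in iWAT or 6 times in eWAT. It passed the filter through iBAT alone, so its call is not read as a result. Them4 was higher in iBAT than in iWAT by 1.27 ± 0.41 on the log2 scale (adjusted p = 0.0157, edgeR). Its difference of 0.65 ± 0.41 between iBAT and eWAT was not called (adjusted p = 0.194, edgeR). Acot6, the last gene of the chromosome 12 cluster, was like Acot4 lower in iWAT than in eWAT, by −0.91 ± 0.23 (adjusted p = 0.0179, edgeR), and was also lower in iBAT than in eWAT by −0.98 ± 0.23. Them6 was called in no tissue comparison.

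Of the acyl-CoA synthetases and fatty acid transport proteins, which make the substrate of the thioesterases, 10 of 16 were higher and 4 lower in iBAT than in iWAT, beside 24% and 30.3% of all genes tested, which is also the background for the lists that follow. Slc27a2 (7.12 ± 1.16), Acss1, a mitochondrial acetyl-CoA synthetase (3.79 ± 0.18), and Acsl5 (3.58 ± 0.14) had the largest log2 differences and Slc27a4 the smallest called one (0.37 ± 0.14). Between iBAT and eWAT, Slc27a4 was not called (−0.17 ± 0.14), whereas Slc27a2, Acss1 and Acsl5 were. Of the genes of acyl-CoA import into mitochondria and the first steps of oxidation, 12 of 14 were higher and 2 lower, with Cpt1b, the muscle form of the carnitine palmitoyltransferase at the gate of import (6.13 ± 0.38), Acaa2 (4.37 ± 0.23) and Acadvl (3.49 ± 0.27) ahead. Dbi, the acyl-CoA binding protein, had the called difference nearest to 0 (0.91 ± 0.27). The lower genes, named after their values were seen, were Cpt1c (−1.88 ± 0.18) and Cpt1a (−1.60 ± 0.19), other forms of carnitine palmitoyltransferase. The list's median was 2.93 on the log2 scale. The median over all genes was −0.14.

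Of the genes of peroxisomal oxidation, 8 of 12 were higher and 1 lower, with a median of 0.61. The transporters Abcd3 (2.21 ± 0.20) and Abcd2 (−2.20 ± 0.27) went opposite ways, Acaa1b followed with 1.40 ± 0.35, and Scp2 had the smallest called difference (0.48 ± 0.18). Between iBAT and eWAT, Acaa1b (0.69 ± 0.34) and Scp2 (0.43 ± 0.18) were not called, whereas Abcd3 and Abcd2 were. Of the genes of coenzyme A synthesis and breakdown, 7 of 10 were higher and 1 lower. Pank1, a kinase at the first step of coenzyme A synthesis, had 4.96 ± 0.74, Nudt8, a mitochondrial coenzyme A hydrolase, 1.86 ± 0.14, Ppcs 1.65 ± 0.14 and Pank4 0.44 ± 0.11. Of the PPARs and their partners, 6 of 8 were higher and 1 lower: Ppara was higher by 3.97 ± 0.44, Esrrg by 3.87 ± 0.70 and Ppargc1b by 3.76 ± 0.28, and Rxra was lower (−0.79 ± 0.19). In the comparison of knockout with wild type across tissues, 0 genes of these 6 lists were called by edgeR.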

How the data were processed

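Polyadenylated RNA was sequenced in 18 libraries, 3 for each of 3 tissues and 2 genotypes, and the same 6 mice gave all tissues. The authors filtered reads with cutadapt and quantified them with salmon on GENCODE M22 (GRCm38) or its combination with RNAcentral; the deposited table holds these estimated counts as whole numbers, without normalisation. Which reference was used for it is not given in the sources used here. Positions, exon lengths and coding sequences came from GENCODE M21, starts from RefSeq.

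Genes were filtered with filterByExpr by group (18728 left), scaled with TMM and fitted in edgeR 4.0.16 (R 4.3.3), whose quasi-likelihood F-test gave the p-values, with Benjamini-Hochberg adjustment over all genes and a threshold of 0.05. A model of tissue and genotype gave the tissue and cross-tissue genotype differences, group means the rest. Standard errors are the log2 fold change over the square root of F. The script was tested on simulated counts. DESeq2 1.42.0 and limma 3.58.1 served as alternatives. Further ones were other filters and scalings, left-out libraries or mice and an exact two-sided sign-flip permutation test over mice. A block was also tried, on the mouse for tissue differences and the joint test, and on the replicate number for the other genotype differences. Libraries of the same number and genotype came from the same mouse; deviations of its tissues correlated at −0.16 to 0.33 over 18 pairs. Named were all 9 members, per list the 3 called genes with the largest and the 1 with the smallest difference between iBAT and iWAT, and the 2 genes most like each member. The members and lists were chosen with earlier results of these data known.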

Additional observations from a re-analysis of the deposited data

Results flagged for a closer look

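Among the 27 sets of 6 libraries formed by the 9 members and 3 tissues, 1 held a library whose gap to the next exceeded Dixon's 95% limit of 0.625 of the range, and chance flags about 1 in 20. This was Acot9 in eWAT, where ko replicate 3 had 79.4 CPM, the next library 44.6 and the median was 38.8. The gap was 0.760 of the range. The same library had the highest Acot1 (17.4 CPM) and a summed level of 7196 CPM of 11 epididymis genes. The joint test of genotype by tissue called 0 members.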

How the results depend on the processing

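With 3 mice a genotype, 18 libraries limit the precision, and the exact sign-flip test over mice cannot give a p below 0.0312. Acot3 had too few counts at these depths for a test. The higher levels of Acot11, Acot13, Acot2 and Acot8 in iBAT than in each white tissue kept their direction and call in 21 of 21 alternatives. Where a result changed, the cause was not tested.

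Members called between iBAT and iWAT were 7, but 4 when the difference had to exceed 0.5 on the log2 scale and 4 with knockout libraries alone. Between iBAT and eWAT they were 4, but 7 with limma voom. Between iWAT and eWAT they were 2, but 3 with DESeq2 (Acot8 added), 3 with voom (Acot13 added), 1 with a difference over 0.5, 1 by the sign-flip test (Acot11 lost), 0 with wild type libraries alone, 0 with knockout libraries alone, and 1 to 2 when 1 mouse was left out. Of the list of other thioesterases, 2 were called between iBAT and iWAT, among them Acot12, which passed the filter through iBAT alone, but 1 with at least 10 counts in every library, with a difference over 0.5 or with wild type libraries alone, and 0 with knockout libraries alone. Against eWAT 2 became 1 with at least 10 counts and with either genotype alone. For the acyl-CoA synthetases 14 called became 8 with wild type and 9 with knockout libraries alone, and for peroxisomal oxidation 9 became 5 over 0.5 and 4 with knockout libraries alone.

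Tissue differences changed sign for Acot4 between iBAT and eWAT (0.051) and Acot7 between iWAT and eWAT (0.059) with knockout libraries alone. For Acot1 between iWAT and eWAT the values were 0.95 with voom, 0.41 without the 4 libraries with genes of another tissue, 0.20 by the sign-flip test and 1.69 without eWAT wt replicate 1 and ko replicate 3, a setting added after seeing the data.

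Genotype differences, none of them called among 580 alternative values, changed sign as follows. With voom they were −0.084 for Acot2 and −0.011 for Acot4 across tissues, −0.011 for Acot2 and −0.048 for Acot9 in iBAT, −0.10 for Acot2 and −0.089 for Acot7 in iWAT, and 0.52 for Acot11 and −0.49 for Acot1 in eWAT. Without the 4 libraries they were 0.011 for Acot8 and 0.0027 for Acot7 across tissues, 0.0019 for Acot13, −0.061 for Acot2 and −0.062 for Acot7 in iWAT, and −2.26 for Acot1 in eWAT. Without the 2 eWAT libraries of the added setting they were 0.051 for Acot7 across tissues, and 0.63 for Acot11 and −0.37 for Acot1 in eWAT. With the mouse as a random effect Acot4 across tissues was −0.020, and with Acot1 and Acot2 summed the value in eWAT was −0.034.

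With 1 mouse left out, the genotype differences across tissues ranged from −0.30 to 1.43 for Acot1, −0.23 to 0.30 for Acot11, −0.13 to 0.048 for Acot13, −0.21 to 0.18 for Acot2, −0.21 to 0.22 for Acot4 and −0.12 to 0.040 for Acot7. In iBAT they ranged from −0.30 to 1.10 for Acot1, −0.17 to 0.58 for Acot11, −0.056 to 0.064 for Acot13, −0.21 to 0.45 for Acot2, −0.28 to 0.62 for Acot4, −0.040 to 0.22 for Acot8 and −0.13 to 0.14 for Acot9. In iWAT the ranges were −0.053 to 1.29 for Acot11, −0.35 to 0.086 for Acot13, −0.16 to 0.29 for Acot2, −0.13 to 0.13 for Acot7 and −0.27 to 0.11 for Acot9. In eWAT they were −2.28 to 2.80 for Acot1, −1.16 to 0.42 for Acot11 and −0.14 to 0.052 for Acot13.

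With a block on the mouse, members called were 7, 4 and 2 in the tissue comparisons, as without it. With a block on the replicate number, they were 0 in each genotype comparison, also as without it. Between genotypes, deviations of same-numbered libraries correlated at −0.47 to 0.55 over 9 pairs, of which 4 exceeded 0.1. Whether these libraries share more than a number was not tested. The block on the replicate number moved the genes called between genotypes from 1 to 3 across tissues and from 1 to 0 in eWAT.

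Over all genes, 10164, 10220 and 1911 were called for iBAT against iWAT, iBAT against eWAT and iWAT against eWAT. These became 6204, 6450 and 675 with a difference over 0.5, 6595, 6574 and 247 with wild type and 5584, 5878 and 123 with knockout libraries alone. The last count was also 1149 with at least 10 counts, 2980 with voom, 854 with the libraries of these tissues alone, and 750 at the lowest without 1 mouse (ko replicate 2). For genotype, 1, 0, 0 and 1 genes across tissues and in iBAT, iWAT and eWAT became 4, 13, 4 and 13 with DESeq2 and 2, 0, 0 and 3 with voom, and 11 in iWAT without the 4 libraries.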

Other observations

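In iBAT, ko replicate 1 was the highest and wt replicate 1 the next highest library for 5 of the 8 tested members, namely Acot1, Acot2, Acot4, Acot9 and Acot11, and for 10.72% of all genes tested. Acot11 reached 1480 and 1131 CPM there against 500.4 to 802 in the other 4 libraries, and Acot2 reached 138 and 97.4 CPM against 59.8 to 71.0. The summed brown adipocyte genes were also highest in these libraries, at 12929 and 11850 CPM against 7443 to 11083. Acot13, Acot7 and Acot8 were highest in ko replicate 2, at 120, 33.1 and 28.4 CPM. These members were singled out after their values were seen, and no test was made.

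Of the genes of the chromosome 12 cluster that were not followed here, Acot5 had 34 counts in eWAT wt replicate 1, one of the 2 eWAT libraries with high Acot1. The other, eWAT ko replicate 3, had more Acot1 (17.4 against 8.18 CPM) and 0 counts of Acot5.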
